A study of Mus musculus with 6 samples.

Results

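The genes described here carry glucose into the cell, break it down to pyruvate and lactate, export the lactate, hold pyruvate back from the mitochondria, or belong to the response to low oxygen. They were taken from a list of 36 genes, chosen by function with earlier results of these data known. Of these, 31 had a probe set annotated to them alone, out of 12393 such genes on the array, and the probe set brightest on average (in log2 signal) stands for each gene. A total of 25 of the 31 exceeded the signal floor of 20.1, below which signals were not read as levels, and all 25 entered the tests. These are 3 transporter genes, 12 genes of the glycolytic steps, 2 pyruvate dehydrogenase kinase genes and 8 genes of the hypoxia-inducible factor (HIF) system. Aldoc, Eno2, Slc16a3, Pdk2, Egln3 and P4ha2 lay below the floor on all 6 arrays. Gapdh and Bnip3l had probe sets annotated only together with other genes, and Gpi1, Eno1 and Ankrd37 matched none, so these 5 were not analysed here as members.

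The study measured gene expression in Ba/F3, a mouse pro-B cell line that depends on interleukin 3 (IL3) unless an active kinase takes its place. Cells carried the retroviral vector pMSCV, either empty with IL3 in the medium, or with the fusion gene ETV6-PDGFRB or FIP1L1-PDGFRA, which encode constantly active PDGF receptor kinases, after selection without IL3. Each of the 3 lines was left untreated or exposed for 4 h to 100 nM imatinib (Glivec), an inhibitor of PDGF receptor, ABL and KIT kinases, giving 6 groups. Each group was 1 Affymetrix array, so a difference within or between lines has no replicate check and no test, and precision is limited by there being only 6 arrays.

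The design leaves limits that touch every value below. IL3 supply, selection and the fusion gene always changed together between vector and fusion cells and cannot be told apart. The labels give no clone or culture numbers, and the RNA was from bulk cells, so fewer cells of a kind and less RNA per cell cannot be told apart. All arrays had the same trimmed mean signal of 100.0, and 49.8% to 50.6% of probe sets lay above the floor. Of 13 pro-B markers matched, only Cd79a, Cd79b and, on the IL3 arrays, Igll1 exceeded the floor, while Pax5, Ebf1, Vpreb1, Rag1 and Rag2 did not. The 3 IL3 receptor genes summed to signals of 2763 to 3668, and 5 T and NK cell markers were below the floor throughout.

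Glucose enters through facilitative transporters of the Slc2a family and is trapped by hexokinases as glucose 6-phosphate. Phosphofructokinase is the committed step of glycolysis, and the later enzymes lead to pyruvate, which lactate dehydrogenase turns into lactate for export by monocarboxylate transporters. Growth factor and cytokine receptors raise this flux in blood cells through PI3K, AKT and MYC, and HIF raises it in low oxygen, since many of its target genes are glycolytic.

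Genes of glucose entry and lactate export, with Hk2 and Pfkp of the first steps of glycolysis, were lower with imatinib in both fusion lines and near their untreated level in IL3-grown cells, while the enzymes from aldolase to lactate dehydrogenase did not pass the test. Of the 25 genes, 7 fell with imatinib in fusion cells, namely Slc2a3, Slc2a1, Slc16a1, Hk2, Pfkp, Vegfa and P4ha1, and 3 rose, namely Pfkm, Ndrg1 and Ddit4. The test was limma with the line as a block, both fusion pairs sharing 1 imatinib coefficient, and an adjusted p under 0.05 over 6808 genes was needed to write that a gene rose or fell. Among all those genes 12.4% fell and 13.5% rose, so both directions were common. With scaling to the hybridization controls, which moves the middle of all genes downwards in the treated fusion arrays, 14 of the 25 fell and 1 rose, beside 1880 and 395 of all 6786 genes fitted. The median log2 change was -0.15 over the 25 genes and 0.04 over all 6808. With 1 array per group, these p-values rest on the gap between the imatinib ratios of the fusion lines and on the difference of the IL3 pair. Both are moderated by a prior variance drawn from all genes fitted, and repeat cultures do not enter the p-values. Leaving out either fusion pair left 1 fusion line and 1 residual degree of freedom, and limma then called no gene, listed or not. These fits therefore cannot tell the 25 genes from the rest, and every call needs both fusion lines.

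All 3 transporter genes above the floor fell. Slc2a3 encodes GLUT3, a transporter with high affinity for glucose. Its signal was 636 untreated and 275 with imatinib in the ETV6-PDGFRB pair, 1080 and 462 in the FIP1L1-PDGFRA pair, and 1269 and 1232 in IL3 cells. Both treated fusion arrays were lower than the other 4, by 2.31-fold and 2.34-fold within their lines, and the limma log2 change was -1.22 ± 0.08 (SE, adjusted p = 0.00355). Slc2a1 encodes GLUT1, the transporter found in most dividing cells. Its signal was 102 and 64.5 in ETV6-PDGFRB cells, 158 and 74.6 in FIP1L1-PDGFRA cells, and 134 and 137 in IL3 cells. The treated signals were 1.58-fold and 2.12-fold lower than the untreated ones in the fusion lines, and the limma log2 change was -0.87 ± 0.13 (adjusted p = 0.0123). Slc16a1 encodes MCT1, which carries lactate and pyruvate across the cell membrane. Its signal was 583 and 337 in the ETV6-PDGFRB pair, 613 and 328 in the FIP1L1-PDGFRA pair, and 749 and 744 in IL3 cells. Here too the treated fusion arrays were the lowest, and the limma log2 change was -0.85 ± 0.09 (adjusted p = 0.00695). The other 2 probe sets of Slc2a1 and the other 3 of Slc2a3 also fell in the same limma model fitted over all probe sets.

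**Figure D1:**
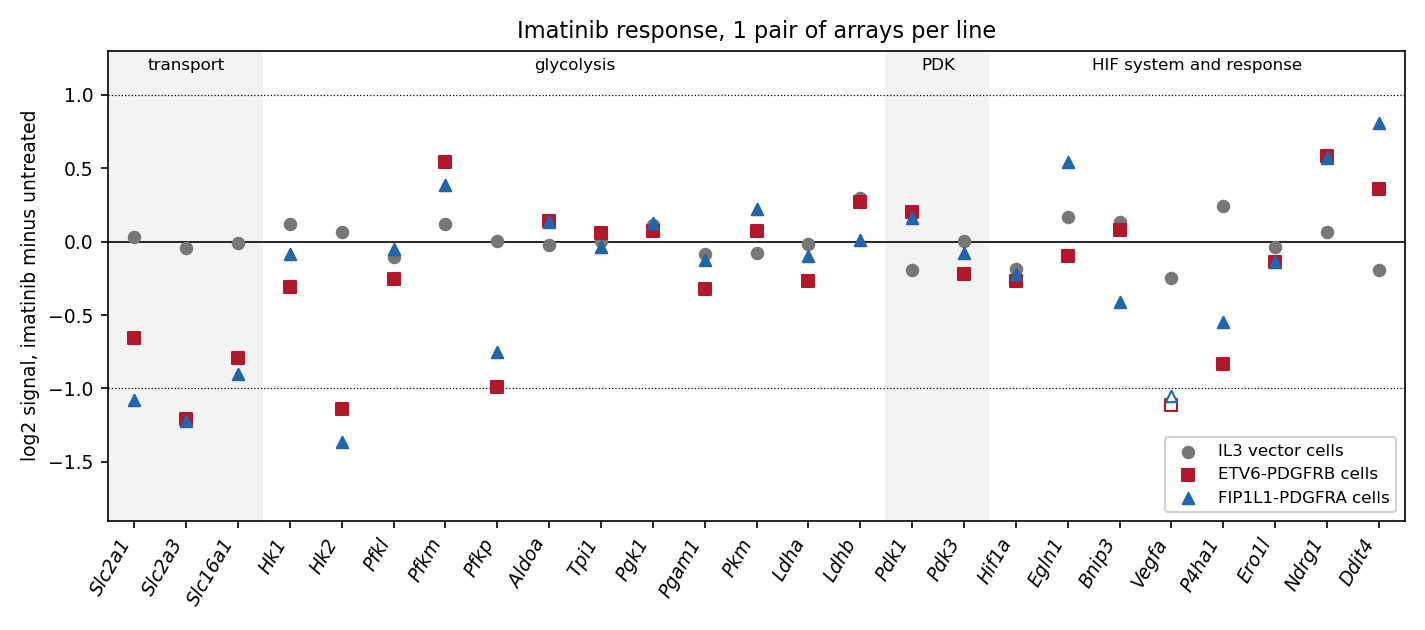
Log2 signal with imatinib minus the log2 signal untreated (vertical axis) for 25 genes (horizontal axis, by role; PDK, pyruvate dehydrogenase kinases), 1 point per line from 1 pair of arrays; open symbols are bounds where the treated signal was below the floor, and dotted lines mark 2-fold. Grey points of IL3 cells lie between -0.24 and 0.30, while 3 genes in ETV6-PDGFRB cells and 4 in FIP1L1-PDGFRA cells are past 2-fold lower.

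Among the 12 genes of the glycolytic steps, 2 fell and 1 rose. Hk2 encodes hexokinase 2, the form induced by growth signals. Its signal was 247 and 112 in ETV6-PDGFRB cells, 194 and 75.5 in FIP1L1-PDGFRA cells, and 164 and 171 in IL3 cells. Untreated fusion cells were thus above both IL3 arrays and treated ones below them, with a limma log2 change of -1.25 ± 0.10 (adjusted p = 0.00399). Hk1, the constitutive hexokinase, had signals between 356 and 441 on the 6 arrays, a log2 change of -0.20 ± 0.10 and a limma adjusted p of 0.216. The phosphofructokinase isoforms differed among themselves. Pfkp, the platelet form, had a signal of 309 and 156 in the ETV6-PDGFRB pair, 430 and 256 in the FIP1L1-PDGFRA pair, and 443 and 444 in IL3 cells, and fell by 0.87 ± 0.10 (limma adjusted p = 0.00772). Pfkm, the muscle form, went from 58.3 to 84.8 and from 58.9 to 76.9 in the fusion lines against 69.5 and 75.4 in IL3 cells, and rose by 0.46 ± 0.10 (limma adjusted p = 0.0284). The treated fusion arrays were the highest of the 6 for Pfkm, but the FIP1L1-PDGFRA one only just exceeded the treated IL3 array. Pfkl, the liver form, had a log2 change of -0.15 ± 0.10 (limma adjusted p = 0.297). The Pfkm call was lost with only the 4 fusion arrays (limma adjusted p = 0.0689) and with scaling to the hybridization controls (0.151).

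The remaining enzymes run from aldolase to lactate dehydrogenase, and none of them passed the test. Aldoa (aldolase A), Tpi1 (triosephosphate isomerase), Pgk1 (phosphoglycerate kinase), Pgam1 (phosphoglycerate mutase), Pkm (pyruvate kinase), Ldha and Ldhb (lactate dehydrogenase subunits) had limma log2 changes between -0.22 and 0.14, with adjusted p from 0.15 to 0.926. Within the fusion lines their ratios lay between -0.32 and 0.27. Signs this close to 0 depended on scaling: Aldoa, Pgk1 and Pkm were slightly higher with imatinib in both fusion lines as deposited and lower after scaling to the hybridization controls. Ldha had signals of 2082 and 1730, 2653 and 2475, and 2986 and 2947 in ETV6-PDGFRB, FIP1L1-PDGFRA and IL3 cells. Its log2 change of -0.18 ± 0.09 missed the threshold (limma adjusted p = 0.191) but passed it after quantile normalization (0.0468). Ldha also passed with scaling to the hybridization controls (limma adjusted p = 0.0229) and with a prior variance following the mean signal (0.0423). Pgam1 passed under the same 2 settings (limma adjusted p = 0.0212 and 0.0434). One of the 2 other Pgk1 probe sets rose by 0.63 ± 0.10 (limma adjusted p = 0.0203 over all probe sets), while the other had a log2 change of -0.01 ± 0.09 (0.928). Pgk1, Tpi1 and Aldoa have near-identical copies in the genome, and their probe sets could also read those copies.

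Both pyruvate dehydrogenase kinase genes above the floor missed the threshold. These kinases switch off pyruvate dehydrogenase and so keep pyruvate out of the citric acid cycle. The log2 change with imatinib was 0.18 ± 0.10 for Pdk1 and -0.15 ± 0.09 for Pdk3, with limma adjusted p-values of 0.245 and 0.263.

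The 8 genes of the HIF system did not move as a group: 2 fell, 2 rose and the other 4 missed the threshold. Hif1a, the oxygen-regulated subunit of HIF-1, had signals of 335 and 294 in IL3 cells, 352 and 292 in the ETV6-PDGFRB pair and 351 and 301 with FIP1L1-PDGFRA. All 3 treated arrays were below all 3 untreated ones, and the log2 change in fusion cells was -0.24 ± 0.10 (limma adjusted p = 0.137). A dimmer Hif1a probe set did fall, by 0.76 ± 0.10 (limma adjusted p = 0.0120 over all probe sets). Egln1, the main oxygen-sensing hydroxylase acting on HIF, was 92.9 and 86.8 in the ETV6-PDGFRB pair but 120 and 175 with FIP1L1-PDGFRA, and its limma adjusted p was 0.374.

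Of the genes known as HIF targets, Vegfa, encoding a vascular growth factor, was 43.5 in untreated ETV6-PDGFRB and 41.7 in untreated FIP1L1-PDGFRA cells and below the floor on both treated arrays. It was at least 2.17-fold and 2.08-fold lower within the lines against 29.0 and 24.5 in IL3 cells. The limma log2 change with these signals at the floor was -1.08 (adjusted p = 0.00710), and it was -0.68 with a pseudocount of 20 in place of the floor and -0.85 with the mean of both probe sets, passing in each. Its second probe set alone did not pass (limma adjusted p = 0.137 over all probe sets). With a floor at the 60th percentile Vegfa exceeded the floor on too few arrays to be fitted. P4ha1, a subunit of collagen prolyl hydroxylase, was 45.3 and 25.5, 45.9 and 31.4, and 49.3 and 58.2 in ETV6-PDGFRB, FIP1L1-PDGFRA and IL3 cells. It fell by 0.69 ± 0.13 (limma adjusted p = 0.0211), but the second probe set did not pass (0.0622), and with a floor at the 60th percentile the change was -0.10 (0.497). Ndrg1, a gene of growth arrest and stress, was 193 and 289, 149 and 221, and 236 and 248 in the same order. It rose by 0.58 ± 0.09 (limma adjusted p = 0.0132), and 2 of its 4 other probe sets also rose. Ddit4 encodes REDD1, a stress-induced inhibitor of mTORC1. Its signals were 103 and 132 in the ETV6-PDGFRB pair, 107 and 188 in the FIP1L1-PDGFRA pair, and 87.1 and 76.1 in IL3 cells. It rose by 0.58 ± 0.14 (limma adjusted p = 0.0404), a call lost with only the 4 fusion arrays (0.0743) and with scaling to the hybridization controls (0.0943). Bnip3, a mitophagy receptor, and Ero1l (Ero1a in the annotation), an oxidase of protein folding, had log2 changes of -0.17 ± 0.14 and -0.14 ± 0.08 (limma adjusted p = 0.418 and 0.265).

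**Figure D2:**
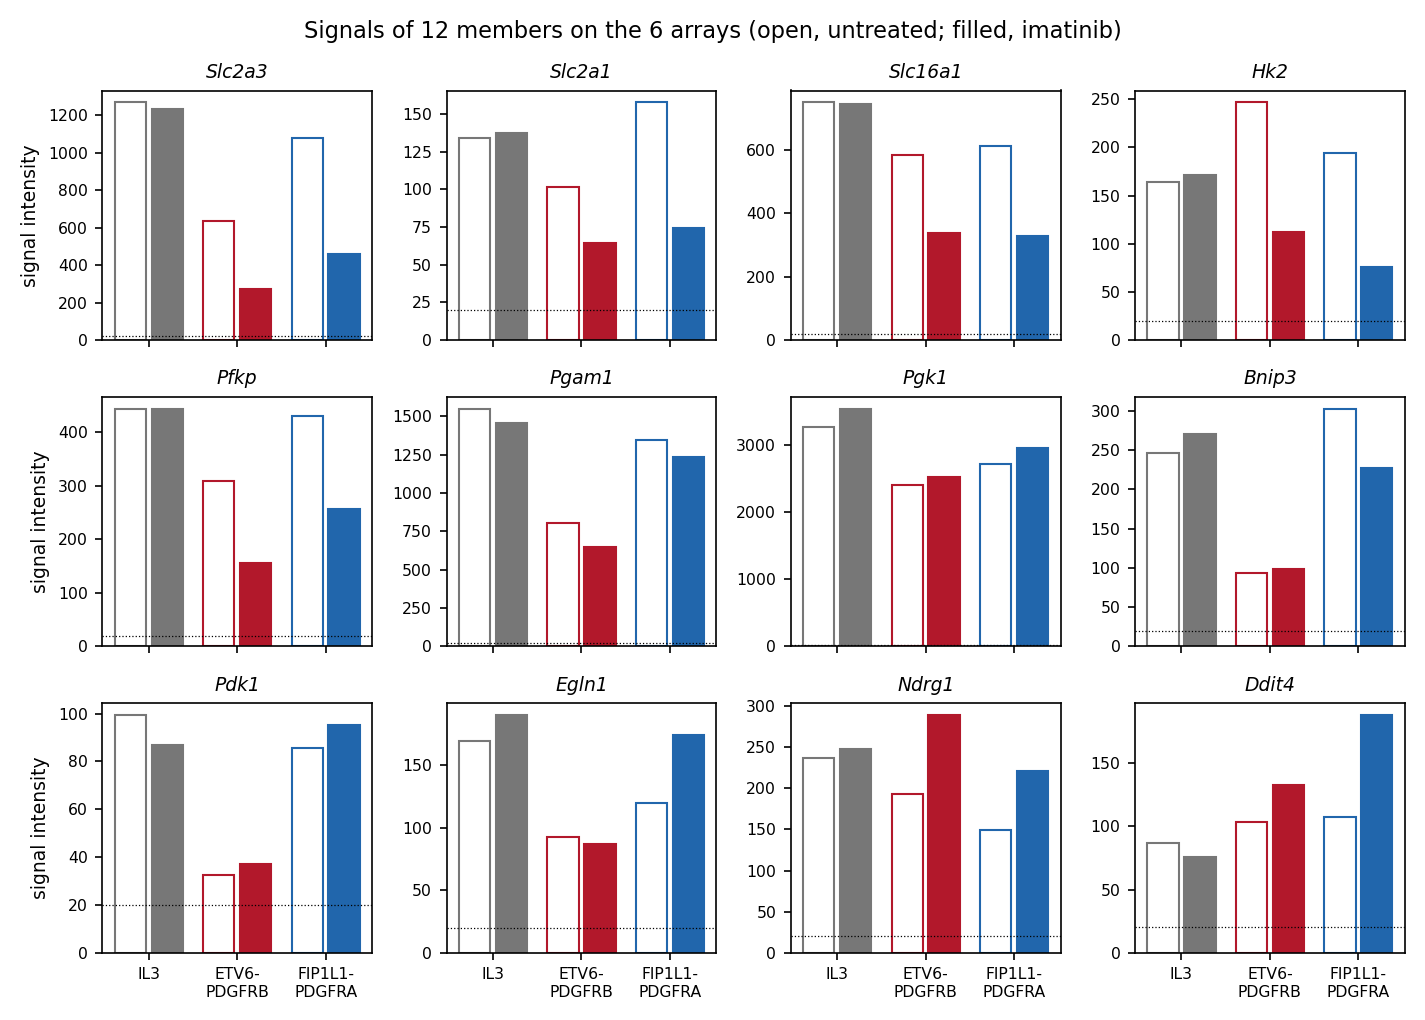
Signal intensity (vertical axis, linear, from 0, with its own scale in each panel) of 12 genes on the 6 arrays, 1 bar per array; open bars are untreated, filled bars imatinib, and the dotted line is the floor of 20.1. In the Slc2a3, Slc16a1, Hk2 and Pfkp panels the filled fusion bars are the lowest, while in the Pgam1, Bnip3 and Pdk1 panels both ETV6-PDGFRB bars are.

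To set the transcripts beside the sequence at their starts, the 250 bases before each start were read for short motifs. ACGTG and GCGTG are the core letters of HIF sites, CACGTG, which contains ACGTG, is the E-box of MYC, and TTCNNNGAA is the core of STAT sites, and both strands were searched. Sequences are from RefSeq, build GRCm38.p6, for 23 of the 25 genes with 33 starts, some of which overlap, with none for Slc2a3 and Ndrg1. Shown 5′ to 3′ on the gene's strand, with matches in capitals, are Hk2 (chr6:82774455-82774704, minus strand), Vegfa (chr17:46032378-46032627, minus), Slc2a1 (chr4:119108495-119108744, plus) and Pfkp (chr13:6648772-6649021, minus), which with Slc2a3 had the largest mean ratios among the genes that passed, and Bnip3 (chr7:138909507-138909756, minus) and Pdk1 (chr2:71872974-71873223, plus), which set the ETV6-PDGFRB line apart and were chosen after their values were seen.
Hk2: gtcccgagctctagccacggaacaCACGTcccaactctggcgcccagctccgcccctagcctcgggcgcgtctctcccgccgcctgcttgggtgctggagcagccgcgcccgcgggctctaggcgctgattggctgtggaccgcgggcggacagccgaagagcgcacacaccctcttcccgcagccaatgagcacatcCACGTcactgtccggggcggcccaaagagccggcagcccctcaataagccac
Vegfa: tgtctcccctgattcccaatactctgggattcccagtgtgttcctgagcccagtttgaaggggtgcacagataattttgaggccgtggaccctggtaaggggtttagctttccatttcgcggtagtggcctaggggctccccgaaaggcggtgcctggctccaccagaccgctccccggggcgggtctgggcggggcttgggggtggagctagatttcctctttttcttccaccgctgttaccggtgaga
Slc2a1: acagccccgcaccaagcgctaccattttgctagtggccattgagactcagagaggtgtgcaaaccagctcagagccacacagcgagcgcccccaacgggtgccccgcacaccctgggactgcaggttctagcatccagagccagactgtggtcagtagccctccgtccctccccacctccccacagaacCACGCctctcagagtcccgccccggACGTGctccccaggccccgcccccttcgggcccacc
Pfkp: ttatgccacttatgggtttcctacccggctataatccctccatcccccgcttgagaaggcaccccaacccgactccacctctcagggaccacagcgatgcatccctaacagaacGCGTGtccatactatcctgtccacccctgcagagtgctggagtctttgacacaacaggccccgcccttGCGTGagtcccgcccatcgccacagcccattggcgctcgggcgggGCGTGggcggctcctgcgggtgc
Bnip3: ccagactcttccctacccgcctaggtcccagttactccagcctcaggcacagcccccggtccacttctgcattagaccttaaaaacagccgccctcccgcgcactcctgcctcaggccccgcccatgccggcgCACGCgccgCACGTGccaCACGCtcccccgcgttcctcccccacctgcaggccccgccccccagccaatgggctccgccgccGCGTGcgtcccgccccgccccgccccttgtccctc
Pdk1: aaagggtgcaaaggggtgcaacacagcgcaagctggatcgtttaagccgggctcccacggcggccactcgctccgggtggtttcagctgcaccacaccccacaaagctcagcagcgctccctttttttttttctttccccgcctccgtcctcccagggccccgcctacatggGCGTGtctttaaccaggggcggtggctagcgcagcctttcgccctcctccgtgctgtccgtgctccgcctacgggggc
Hk2 held 2 ACGTG matches, both on the opposite strand and so printed as CACGT, Slc2a1 held 1 ACGTG and 1 GCGTG, Pfkp held 3 GCGTG, and this Vegfa window held none of the 4 motifs. A second, downstream Vegfa start, not printed, held 1 ACGTG and 1 GCGTG in its window. The Bnip3 window held 1 CACGTG and 3 GCGTG, and this Pdk1 window 1 GCGTG, while the window of a second Pdk1 start, not printed, held none. Over the 33 starts, 19 held ACGTG, 18 GCGTG, 5 CACGTG and 1 TTCNNNGAA, against 16.6%, 28.2%, 6.02% and 7.02% of 32841 promoters of the same length. Of the 7 starts of genes that fell, 5 held ACGTG and 5 GCGTG, and of the 21 starts of genes that did not pass, 11 and 10. Of the 5 starts of genes that rose, 3 held ACGTG and 3 GCGTG. The genes were listed for glycolysis and the HIF response and include known HIF targets. Shares of HIF core letters above those of all promoters are therefore no result of these arrays. These matches are letters in a window and do not show binding.

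Within each line, counts past 2-fold were set beside those of all genes measured in that line. In ETV6-PDGFRB cells 3 of the 25 genes were lower with imatinib (Hk2, Slc2a3 and Vegfa), against 2.86% of all genes, and 0 were higher, against 1.61%. In FIP1L1-PDGFRA cells 4 were lower (the same 3 and Slc2a1), against 2.97%, and 0 were higher, against 2.19%. In IL3 cells 0 were lower and 0 higher, where the shares of all genes were 0.0599% and 0.0749%. The IL3 ratios of the 25 genes lay between -0.24 for Vegfa and 0.30 for Ldhb, and the SD of all genes' ratios was 0.19 there against 0.50 and 0.51 in the fusion lines. Across the 25 genes, the imatinib ratios of the fusion lines, which share no array, had a Pearson correlation of 0.90 and a Spearman correlation of 0.88, against a Pearson correlation of 0.77 over 6640 genes. Genes are not independent replicates, so these values only describe the arrays. Both treated fusion arrays were below the other 4 for 7 of the 25 genes, against 18.7% of all genes, and above the other 4 for 2 (Pfkm and Ddit4), against 23.8%. These 7 are the genes that fell, whose choice by the same contrast nearly fixes this order.

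Whether the fusion lines responded differently from IL3 cells was also tested, as the interaction of imatinib with the kind of line. Limma called 0 of 6808 genes for this difference at adjusted p under 0.05, with 1179 at an unadjusted p under 0.05, among them 9 of the 25 genes. The lowest adjusted p of the 25 was 0.163, for Slc2a3 and Hk2, with log2 differences of -1.17 and -1.32. With 6 arrays, the response of these genes in fusion cells is therefore not shown to differ from that in IL3 cells by this test.

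Before any drug, the ETV6-PDGFRB line had lower signals for most of these genes, and the FIP1L1-PDGFRA line was close to IL3 cells. With 1 untreated array per line these are descriptions with no test. Against IL3 cells, 20 of 25 genes were lower in ETV6-PDGFRB cells, with a median log2 ratio of -0.40 where that of all genes was 0.02. The lowest of the 3 untreated signals was the ETV6-PDGFRB one for 19 of the 25 genes, a share of 76.0% against 31.8% of 6853 genes. By role this held for 10 of 12 glycolytic genes, 3 of 3 transporters, 2 of 2 kinases and 4 of 8 HIF system genes. In FIP1L1-PDGFRA cells 14 were lower and 11 higher than in IL3 cells, with a median of -0.04 where that of all genes was -0.03, and medians of 0.11 and 0.12 after scaling to the hybridization controls.

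Bnip3 and Pdk1 differed most. The Bnip3 signal was 93.5 and 98.7 on the ETV6-PDGFRB arrays, against 246 and 270 in IL3 cells and 303 and 227 in FIP1L1-PDGFRA cells, so untreated it was 2.63-fold below IL3 and 3.24-fold below FIP1L1-PDGFRA cells. The Pdk1 signal was 32.4 and 37.2 on the ETV6-PDGFRB arrays, against 99.4 and 86.8 in IL3 cells and 85.5 and 95.3 with FIP1L1-PDGFRA. Both ETV6-PDGFRB arrays were below the other 4 for each of these genes, as for 7.74% of all genes. Bnip3 and Pdk1 were singled out for their untreated difference, which favours this order. The second Pdk1 probe set showed a smaller difference from IL3 cells, a log2 ratio of -0.53 against -1.62.

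Several glycolytic enzymes followed at smaller differences. The Pgam1 signal was 808 and 646 in ETV6-PDGFRB cells, against 1551 and 1460 in IL3 cells and 1349 and 1237 with FIP1L1-PDGFRA. The Pgk1 signal was 2403 and 2524, against 3276 and 3546 and then 2717 and 2964, and its other 2 probe sets had untreated log2 ratios to IL3 of -0.61 and -1.49 against -0.45. The ETV6-PDGFRB arrays were also the lowest for Pfkl, at 313 and 262 against 454 to 487 on the other arrays. The Pkm signal was 1746 and 1832, against 2197 to 2565, and that of Ero1l 484 and 440, against 727 to 802. The other 2 Ero1l probe sets had untreated ratios to IL3 of only -0.13 and -0.04. Egln1 was at 92.9 and 86.8 in ETV6-PDGFRB cells and 120 to 190 elsewhere, and its second probe set differed more from IL3 cells (log2 -1.36 against -0.87).

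**Figure D3:**
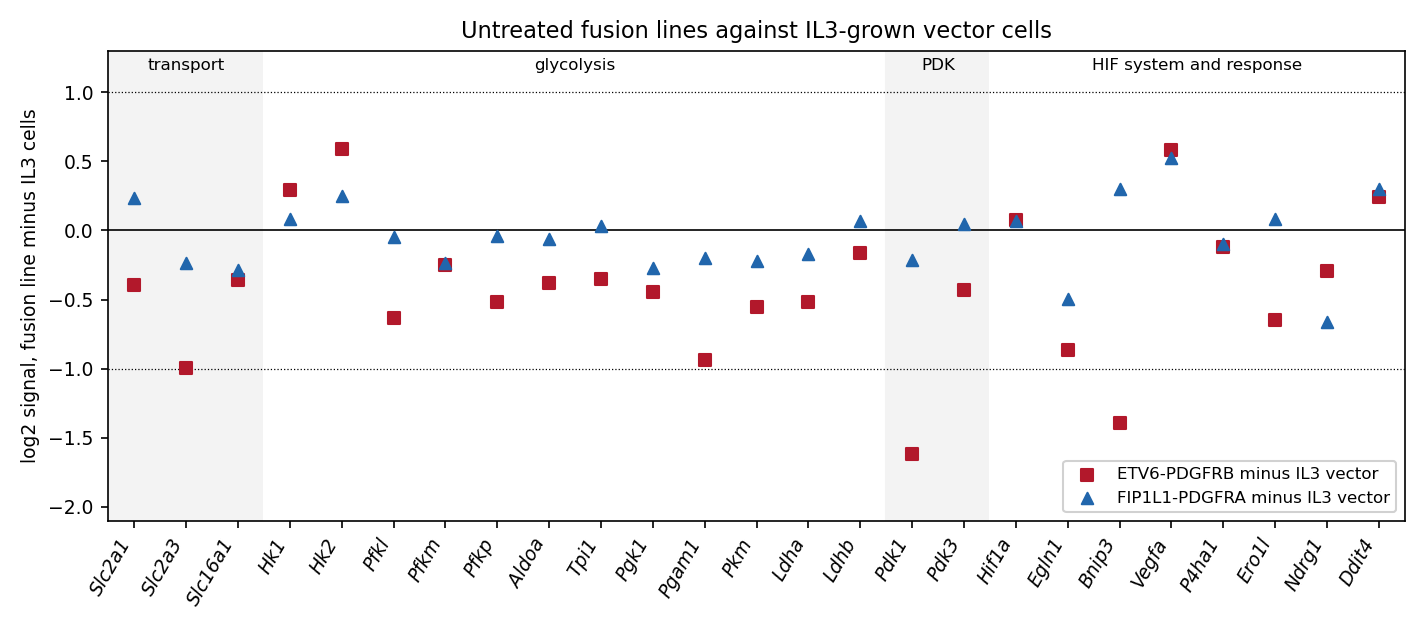
Log2 signal of each untreated fusion line minus that of untreated IL3 cells (vertical axis) for 25 genes (horizontal axis, by role), 1 array per line, with dotted lines at 2-fold. Red squares of ETV6-PDGFRB cells lie below 0 for 20 genes and reach -1.62 for Pdk1 and -1.40 for Bnip3, while blue triangles of FIP1L1-PDGFRA cells lie between -0.66 and 0.52.

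Past 2-fold, 2 of the 25 genes (Pdk1 and Bnip3) were lower in untreated ETV6-PDGFRB than in IL3 cells, against 0.736% of all genes, and 0 were higher, against 2.24%. At 1.5-fold 7 were lower (Pfkl, Pgam1, Slc2a3, Pdk1, Bnip3, Egln1 and Ero1l), against 3.42%. Slc2a3 lay just inside the 2-fold limit with a log2 ratio of -0.997. Against untreated FIP1L1-PDGFRA cells, Pdk1 and Bnip3 were again lower past 2-fold, against 0.752% of all genes, 0 were higher, against 0.870%, and 7 were lower at 1.5-fold, against 3.02%. These are Pfkl, Pgam1, Slc2a1, Slc2a3, Pdk1, Bnip3 and Ero1l, and this comparison shares the ETV6-PDGFRB array with the one before. Between untreated FIP1L1-PDGFRA and IL3 cells 0 of the genes were past 2-fold lower, against 0.327%, or higher, against 1.82%. At 1.5-fold 1 was lower, against 2.35% of all genes, namely Ndrg1 at 149 in FIP1L1-PDGFRA and 236 in IL3 cells.

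Signals above those of IL3 cells in both untreated fusion lines were found for Hk1, Hk2, Hif1a, Vegfa and Ddit4. Both comparisons use the same untreated IL3 array, and the share of all genes with this order was not computed. The ratios of Hk1 were 1.23-fold and 1.06-fold and those of Hif1a 1.05-fold in each line, and the Hif1a ratio in ETV6-PDGFRB cells turned below 1 after scaling to the hybridization controls. Hk2 was 1.51-fold higher in ETV6-PDGFRB and 1.19-fold higher in FIP1L1-PDGFRA cells than in IL3 cells. Vegfa, at 43.5 and 41.7 against 29.0, was also higher, although its second probe set was lower in ETV6-PDGFRB cells (log2 -0.48). Ddit4 was 1.18-fold and 1.23-fold higher, and both of its IL3 arrays lay below the other 4, as for 12.1% of all genes.

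Both ETV6-PDGFRB arrays were below the other 4 for 12 of the 25 genes, against 7.74% of 7018 genes. These were Pfkl, Aldoa, Tpi1, Pgk1, Pgam1, Pkm, Ldha, Pdk1, Pdk3, Bnip3, Egln1 and Ero1l, and this order was examined after the values were seen. None of the 12 passed the limma test of the imatinib response, but the order itself leaves out genes that fall far enough in FIP1L1-PDGFRA cells. Slc2a3 missed it in this way, at 636 in untreated ETV6-PDGFRB and 462 in treated FIP1L1-PDGFRA cells. The missing overlap is therefore not a result about these genes. Both FIP1L1-PDGFRA arrays were below the other 4 for 0 of the genes, against 5.61%. Both IL3 arrays were above the other 4 for 7 of the genes, against 12.6%. These were Pfkp, Pgk1, Pgam1, Ldha, Slc2a3, Slc16a1 and P4ha1, of which Pfkp, Slc2a3, Slc16a1 and P4ha1 also fell with imatinib. A fall on the treated fusion arrays itself favours this order, so that overlap is not a result about these genes. The untreated ETV6-PDGFRB to IL3 ratios and the FIP1L1-PDGFRA imatinib ratios, which share no array, had a Pearson correlation of -0.17 over the 25 genes and -0.11 over 6614 genes.

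Markers of other cell types also set the ETV6-PDGFRB line apart. The 6 mast cell markers summed to signals of 3429 and 4741 on its arrays, against 223 to 494 on the other 4, with Cma1, Cpa3 and Mcpt4 above the floor and Tpsb2, Fcer1a and Ms4a2 below it throughout. The 6 fibroblast markers summed to 485 and 328 against 56.2 to 84.6, with only Acta2 above the floor. The summed signal of the 6 myeloid markers was lower, at 116 and 114 against 226 to 357, and this rested on Adgre1. Adgre1 was 61.4 and 46.2 against 174 to 305, while Csf1r was 31.1 and 34.0 against 30.9 to 32.8. Itgam, Lyz2, Mpo and Elane were below the floor. Markers also moved with imatinib in fusion cells. In limma, Cma1 and Cpa3 of the mast cell list rose (adjusted p = 0.0370 and 0.0290), as did the pro-B marker Cd79b (0.00805), while Adgre1 (0.0242) and Acta2 (0.0209) fell. The erythroid markers Klf1 and Epor rose as well (0.00749 and 0.0421), and their list of 3 summed to 386 untreated and 1024 treated in the ETV6-PDGFRB pair, 169 and 848 in the FIP1L1-PDGFRA pair, and 241 and 233 in IL3 cells, with Hba-a1 below the floor. With only the 4 fusion arrays the calls of Cma1, Cpa3, Adgre1 and Epor were lost (adjusted p = 0.0756, 0.0705, 0.0618 and 0.0835). The part of these markers in the results above was not tested.

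**Figure D4:**
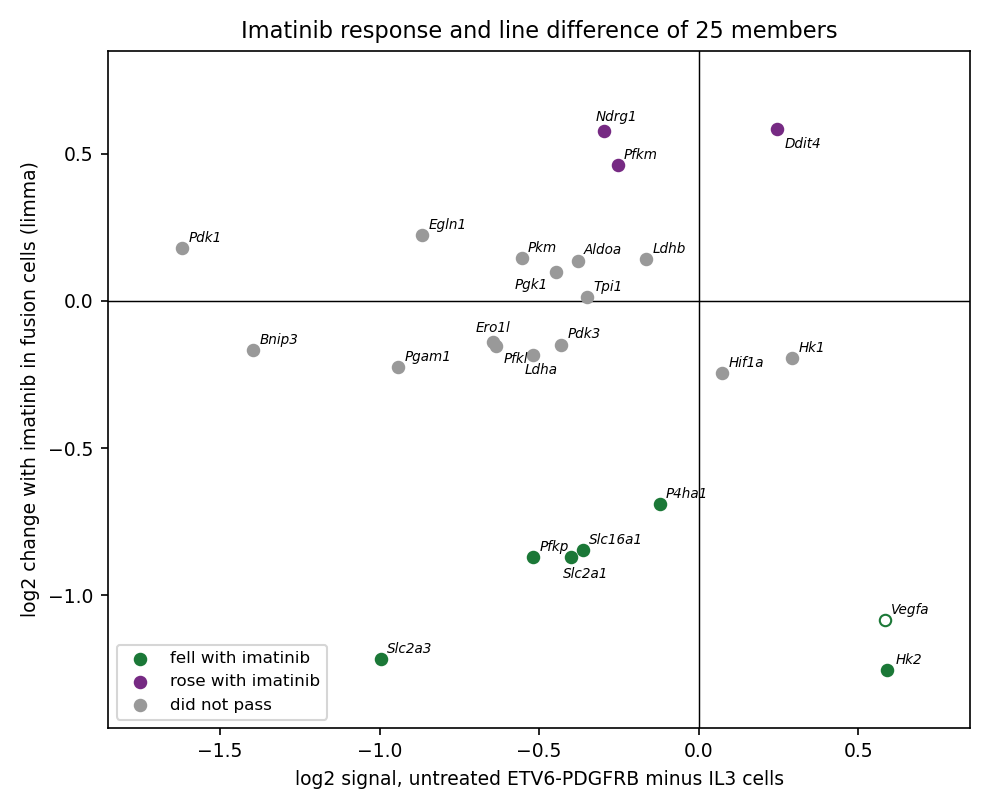
Limma log2 change with imatinib in fusion cells (vertical axis, 6 arrays) against the log2 ratio of untreated ETV6-PDGFRB to IL3 cells (horizontal axis, 1 array each) for 25 genes; green points fell, purple rose and grey did not pass, and the open circle (Vegfa) is a bound. Because the untreated ETV6-PDGFRB array enters both axes, with opposite sign, they are not independent. Pdk1, Bnip3 and Pgam1 sit far left near a response of 0, Hk2 and Vegfa low on the right, and Slc2a3 low on the left, at -0.997 and -1.22.

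Of the comparisons made, the median gap was widest between treated ETV6-PDGFRB and treated IL3 cells. Here 9 of the 25 genes were lower past 2-fold in ETV6-PDGFRB than in IL3 cells, against 3.72% of all genes, and 0 were higher, against 4.43%. These 9 were Pfkp, Pgam1, Slc2a1, Slc2a3, Slc16a1, Pdk1, Bnip3, Egln1 and P4ha1, led by Slc2a3 at 4.47-fold lower (275 against 1232). The median log2 ratio was -0.65 where that of all genes was 0.04. In FIP1L1-PDGFRA cells 3 were lower (Hk2, Slc2a3 and Slc16a1), against 2.38%, and 1 was higher (Ddit4, 2.47-fold), against 2.23%, with a median of -0.16 where that of all genes was 0.02.

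Other genes of the same pathways came from lists chosen by function with earlier results of these data known. Of 144 such genes matched, 100 entered the limma fit, and 14 rose and 14 fell at adjusted p under 0.05, beside 13.5% and 12.4% of all genes. With scaling to the hybridization controls 9 rose and 34 fell of 99 fitted, beside 395 and 1880 of all 6786 genes fitted. A gene could stand in more than 1 list. Of the 28 calls, 11 were lost with only the 4 fusion arrays (Slc2a8, Pygb, Taldo1, Cul2, Ak3, Cited2, Ier3, Jmjd6, Mlx, Esrra and Stk11), 11 with the floor lowered to the 40th percentile, and 5 with scaling to the hybridization controls, with Hif3a lost in both of the latter. Among 17 further glycolysis and glucose entry genes, Pfkfb3 fell and Slc2a8 and Pygb rose, with a median log2 change of -0.07. Pfkfb3 makes the activator of phosphofructokinase, and was 41.1 and 35.3 untreated and below the floor treated in ETV6-PDGFRB and FIP1L1-PDGFRA cells (log2 ratios of -1.03 and -0.82 or lower, limma adjusted p = 0.00712). Of 6 genes of mitochondrial pyruvate use 0 passed, and of 9 pentose phosphate genes Taldo1 rose, with median log2 changes of -0.13 and 0.10.

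Of 8 further core genes of the HIF pathway, Hif3a rose and Cul2 fell, with a median log2 change of 0.04. Arnt, the partner of HIF1A, missed the threshold (log2 change -0.75, limma adjusted p = 0.0585), as did Vhl, which marks HIF1A for destruction (-0.12, adjusted p = 0.407), and Epas1 (HIF-2α) was below the floor. Of 29 further HIF-response genes 3 rose and 5 fell, with a median of -0.06. Car12, a carbonic anhydrase, was 41.7 and 70.6 untreated and below the floor treated in ETV6-PDGFRB and FIP1L1-PDGFRA cells (log2 ratios of -1.06 and -1.81 or lower, limma adjusted p = 0.00968). Tfrc, the transferrin receptor, fell by 0.76 ± 0.08 (limma adjusted p = 0.00754), from 1512 to 898 and from 919 to 542. Ier3, an early response gene, fell by 0.76 ± 0.16 (limma adjusted p = 0.0268, and 0.0604 with only the 4 fusion arrays). In the other direction, Cxcr4, a chemokine receptor, rose by 1.80 ± 0.28 (limma adjusted p = 0.0138), from 360 to 826 and from 138 to 725. Narf also rose, by 1.61 ± 0.16 (limma adjusted p = 0.00690).

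Among 19 transcription factors and sensors linked to glycolytic genes, 6 rose and 4 fell, with a median log2 change of 0.06. Myc, which drives many glycolytic genes, went from 656 to 232 with ETV6-PDGFRB and from 681 to 180 with FIP1L1-PDGFRA, with 724 and 722 in IL3 cells. It fell by 1.71 ± 0.12 (limma adjusted p = 0.00383). Mxd4 and Mxd3, which compete with MYC for its partner MAX, rose by 1.53 ± 0.14 and 1.25 ± 0.09 (limma adjusted p = 0.00521 and 0.00383), and Klf10, a growth-restraining factor, rose by 0.88 ± 0.13 (adjusted p = 0.0125). Txnip, an inhibitor of glucose uptake, was 433 and 702 in the ETV6-PDGFRB pair, then 692 and 786 with FIP1L1-PDGFRA, and missed the threshold (limma log2 change 0.44 ± 0.14, adjusted p = 0.0789). Of 13 regulators in the mTORC1 and AKT list, Pik3cd, Pik3cg and Stk11 fell and Sesn1 rose, with a median of -0.10. Pik3cd and Pik3cg encode the catalytic PI3K subunits typical of blood cells and fell by 1.91 ± 0.18 and 0.89 ± 0.09 (limma adjusted p = 0.00608 and 0.00695).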

How the data were processed

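RNA of 6 Ba/F3 samples was hybridised to Affymetrix mouse arrays of 22690 probe sets, from 5 µg of RNA each and cells grown in 10% serum, per the labels' protocols. The deposited values were linear intensity signals from MAS5 in GCOS 1.4.0, by the authors according to the submitters' processing notes, and its background settings and detection calls are not given in the sources used here. Mean signals after trimming 2% at each end were 100.0 on every array. Platform annotation gave 1 gene symbol to 20393 probe sets, several to 691 and none to 1606, 64 controls included, and shared or control probe sets were not used for genes. Names were checked against RefSeq GRCm38.p6.

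The floor was the 50th percentile of signals, taken as its median over the arrays (20.1), and lower signals were set to it before log2. A ratio needed 1 array above the floor and is a bound where only 1 was. Limma 3.58.1 (R 4.3.3, lmFit and eBayes) was fitted to 6808 genes that exceeded the floor on 2 or more arrays, with Benjamini-Hochberg adjustment. With the difference of the IL3 pair taken as spread, there were 2 residual and 3.10 prior degrees of freedom. Values at the floor add no spread, so changes with floored fusion arrays carry no SE. The model was tested on simulated data. The gene list, the pathway and marker lists and the tests were chosen with earlier results of these data known. Every listed gene with its own probe set was named, with up to 12 pathway genes of the largest change past the threshold and Myc, Txnip, Arnt, Vhl and Epas1, and genes behind a count of 5 or fewer were named after their values were seen. Alternatives were floors at the 40th and 60th percentile, a pseudocount of 20, scaling to 18 hybridization control probe sets, quantile normalization, the mean of all probe sets, only the 4 fusion arrays, a prior variance following the mean signal, a fold limit of 1.5 and leaving out either fusion pair.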

Additional observations from a re-analysis of the deposited data

How the results depend on the processing

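With imatinib in fusion cells, the count of genes that rose went from 3 to 1 with a floor at the 40th percentile, 1 with scaling to the hybridization controls and 1 with only the 4 fusion arrays, and in each case Pfkm and Ddit4 lost the call. The count that fell went from 7 to 14 with scaling to the hybridization controls, which gained Hk1, Pfkl, Pgam1, Ldha, Pdk3, Hif1a and Ero1l. That scaling moved the median log2 ratio of all genes with imatinib in the ETV6-PDGFRB pair from 0.03 to -0.15 and in the FIP1L1-PDGFRA pair from 0.05 to -0.22, and that of the 25 genes from -0.22 to -0.40 and from -0.08 to -0.36. It also left 0 genes, not 2, with both treated fusion arrays above the other 4, an alternative chosen after seeing the data. Without the ETV6-PDGFRB pair or without the FIP1L1-PDGFRA pair, limma called 0 of the genes in either direction and 0 of all 6808, with 1 residual degree of freedom. At an unadjusted p under 0.05 these fits held 9 and 10 of the 25 genes and 2167 and 2334 of all genes, and the lowest adjusted p was 0.107 and 0.102. The other settings kept the counts within 1.5 times, and no setting reversed a gene that had passed. Among the genes that fell, quantile normalization added Ldha and the mean of all probe sets added Hif1a. A prior variance following the mean signal added Pgam1 and Ldha. The floor at the 60th percentile dropped P4ha1 and took Vegfa out of the fit, so that 5 genes fell.

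For genes lower past 2-fold, scaling to the hybridization controls gave 5 with imatinib in ETV6-PDGFRB cells and, untreated, 4 for ETV6-PDGFRB against IL3 and 4 against FIP1L1-PDGFRA. The mean of all probe sets gave 4 and 1 for these untreated comparisons. The pseudocount gave 2 with imatinib in FIP1L1-PDGFRA cells and 5 for treated ETV6-PDGFRB against IL3. The shares of all genes past 2-fold under these settings are not given here. At 1.5-fold the lower count was 7 with imatinib in ETV6-PDGFRB cells, against 9.24% of all genes. Between untreated lines it was 7 for ETV6-PDGFRB against IL3 (3.42% of all genes) and 1 for FIP1L1-PDGFRA against IL3 (2.35%). For untreated ETV6-PDGFRB against FIP1L1-PDGFRA it was 7 (3.02%). For treated ETV6-PDGFRB and FIP1L1-PDGFRA against IL3 it was 14 and 6, against 10.9% and 8.52%. The higher count at 1.5-fold was 1 with imatinib in each fusion line, against 8.63% (ETV6-PDGFRB) and 9.03% (FIP1L1-PDGFRA) of all genes. It was also 1 for untreated and 1 for treated ETV6-PDGFRB against IL3, against 6.41% and 14.5%. The causes of these moves were not tested. The limma fit already pairs the arrays of each line through its block, and the labels number no replicates for any other pairing. Signals near the floor, as for Vegfa, P4ha1, Ldhb and Pdk1 in ETV6-PDGFRB cells, limit what can be read of small changes.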
